A study of Mus musculus with 6 samples.

Results

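Matricellular proteins are secreted into the extracellular matrix but mainly modulate how cells attach, migrate and receive growth factors there, rather than bearing load. In the early heart tube the matrix between myocardium and endocardium forms the cardiac jelly and cushions from which valves and septa develop. The 10 genes described here encode thrombospondins (Thbs1, Thbs2 and Thbs4), the collagen-binding protein SPARC and its relative (Sparc and Sparcl1), tenascin-C (Tnc), the fasciclin-domain proteins periostin and TGFBI (Postn and Tgfbi), and the fibulins (Fbln1 and Fbln2). Each was taken as the array row that the platform annotation assigned to its symbol alone. All 10 of the 10 genes named were measured, each by 1 row, out of 22180 genes and 41345 rows on the array.

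The arrays compared pools of whole hearts from C57BL/6 mouse embryos at embryonic day 9.5. The 3 control pools were Hdac3-flox/flox, in which both copies of the histone deacetylase gene Hdac3 carry loxP sites and no Cre is present. The 3 mutant pools, called Hdac3-Isl1KO, carried the genotype Hdac3-flox/flox; Isl1-Cre, in which Cre is made in Isl1-expressing cells such as the second heart field, the progenitors of the outflow tract and right ventricle. Both groups therefore shared the floxed alleles, and Cre itself cannot be told apart from the loss of Hdac3. The comparison asks which genes differ in the heart when Hdac3 is removed from this lineage, while the remaining heart cells keep the gene.

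The values are log2 expression values, on which a difference of 1 is a 2-fold change. Hdac3 read 9.67, 9.73 and 9.64 in the Hdac3-flox/flox pools and 9.11, 9.20 and 9.31 in the Hdac3-Isl1KO pools, a difference of -0.47 (limma adjusted p = 0.0636). The 8 cardiomyocyte markers examined were high in both groups, the lowest being Myl2 at 10.2 and 9.91. Pairs of arrays correlated between 0.980 and 0.989, and the array least like the others was Hdac3-flox/flox replicate 2, with a mean correlation of 0.982. Nothing in the labels says that the pools came from separate litters, so p-values measure only how these samples vary, which may be technical, and precision is limited by how few arrays there are.

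Of the 10 matricellular genes, 9 had a lower mean in Hdac3-Isl1KO hearts and Tnc alone had a higher one, where 50% of all genes had a lower mean. None of the 10 passed the threshold of an adjusted p of 0.05 over all genes (limma), where 95 genes, or 0.428%, did. At an unadjusted p of 0.05, 6 of them passed, 5 lower (Thbs1, Sparc, Sparcl1, Tgfbi and Fbln2) and 1 higher (Tnc), where 14.5% of all genes did. In 8 of the 10 the 3 Hdac3-Isl1KO values all lay on one side of the 3 Hdac3-flox/flox values, 7 lower and 1 higher. Over all genes 21.8% had groups that did not overlap, 12.4% lower and 9.41% higher. Among genes brighter than the median row of the array 29.5% did, and 8 of the 9 matricellular genes in that set. Of the 8 cardiomyocyte markers, 6 were lower and 1 was higher without overlap. Separated groups were therefore not particular to the 10 genes, but their number varied between lists. Of the 8 epicardial and proepicardial markers 6 were lower and 0 higher without overlap. Of the 8 endothelial and endocardial markers 1 was lower and 0 higher, and of the 7 cushion mesenchyme markers measured also 1 and 0. After a further quantile normalization 5 of the 10 had groups that did not overlap, 4 lower and 1 higher, against 22.2% of all genes. The median difference of the 10 was -0.17, against 9.4e-05 over all genes, and their median size was 0.22 against 0.10. Fewer cells of a type and less RNA per cell cannot be told apart in whole hearts.

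**Figure D1:**
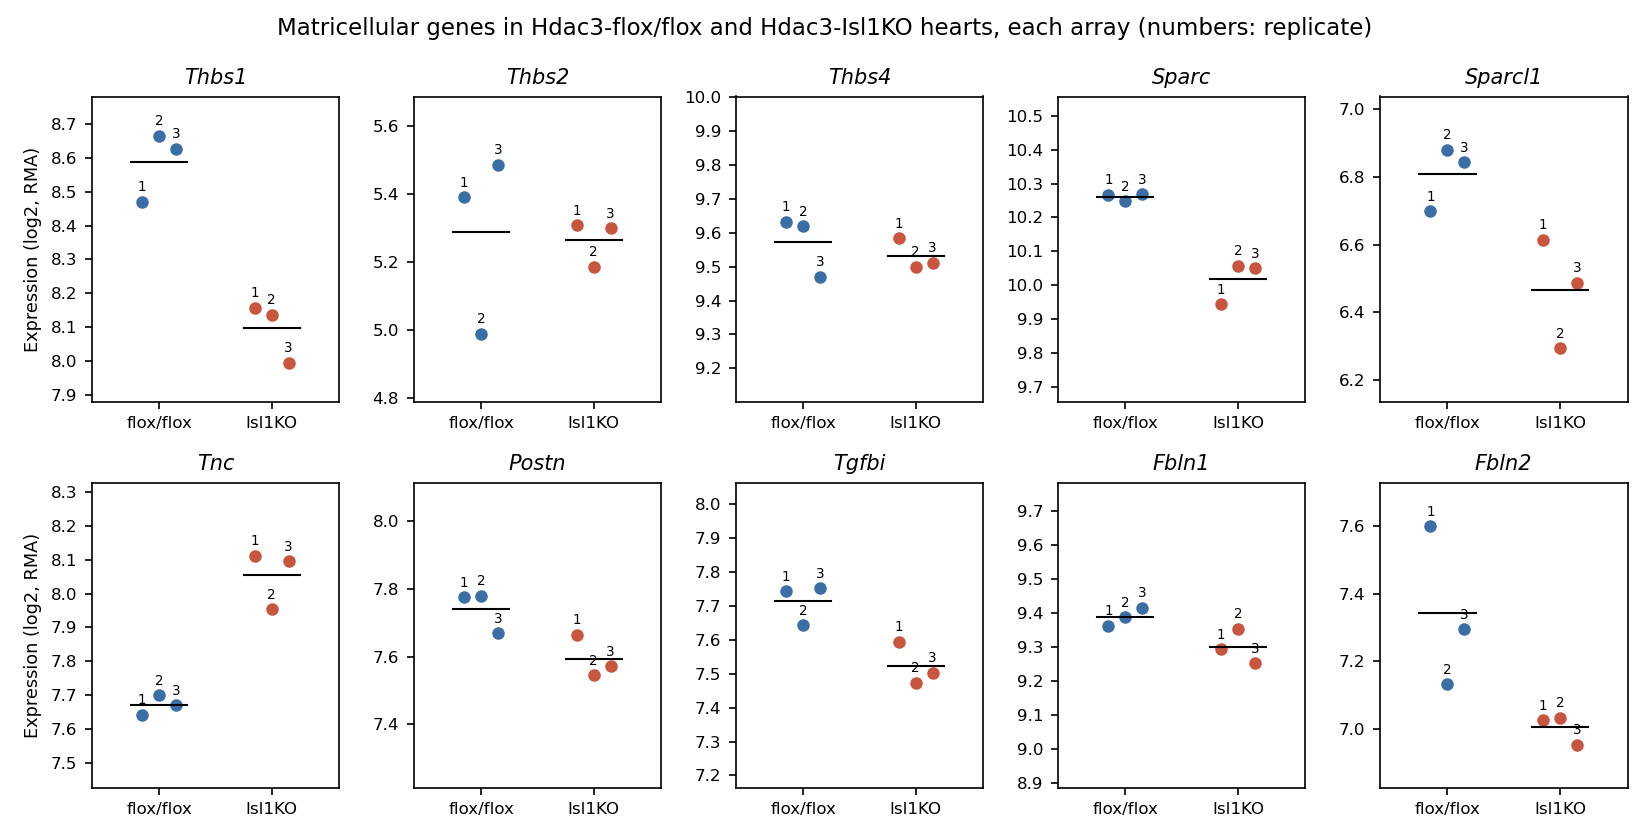
Expression (log2, RMA) of each gene on each array, with Hdac3-flox/flox in blue, Hdac3-Isl1KO in red, replicate numbers above the points and a line at each group mean. All panels span the same number of log2 units, and levels of different genes are not comparable because each has its own probes. The groups overlap for Thbs2 and Thbs4, Tnc is higher in all 3 Hdac3-Isl1KO pools, and the other 7 genes are lower in all 3, of which Postn, Tgfbi and Fbln1 overlap after a further quantile normalization.

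Upstream sequences are shown for the gene with the higher mean, Tnc, and for 3 of those with a lower mean, Sparc, Postn and Tgfbi. This sets start sites of genes whose means lay in opposite directions side by side. The 3 were not those with the largest differences. Fbln2, which is not printed, differed by -0.34, while Postn differed by -0.15, with a limma interval from -0.32 to 0.02. Each line gives the 100 bases before a transcription start in RefSeq (mouse build GRCm38.p6), 5′ to 3′ on the gene's strand. Capitals mark TATAA, the core of a TATA box, and GTCTG, the core recognised by SMAD proteins of the TGF-beta pathway, on either strand. For Tnc and Postn, which have 2 listed starts each, the start with a TATAA close to it is shown.
Tnc, chr4:64046937-64047036, minus strand: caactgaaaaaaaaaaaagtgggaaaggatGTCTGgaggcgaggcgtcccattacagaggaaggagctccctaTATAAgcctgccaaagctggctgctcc
Sparc, chr11:55420081-55420180, minus strand: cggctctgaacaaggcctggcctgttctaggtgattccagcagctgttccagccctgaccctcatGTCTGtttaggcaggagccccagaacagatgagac
Postn, chr3:54361007-54361106, plus strand: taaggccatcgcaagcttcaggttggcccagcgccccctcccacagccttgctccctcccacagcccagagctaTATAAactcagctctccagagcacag
Tgfbi, chr13:56609486-56609585, plus strand: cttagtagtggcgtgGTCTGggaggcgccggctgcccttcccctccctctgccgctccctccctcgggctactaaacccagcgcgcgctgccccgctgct

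The TATAA began 27 bases before the Tnc start and 26 bases before the Postn start, the starts having been chosen for it. The other Postn start had none in the 250 bases before it. In the stretches printed the GTCTG began 70 bases before the Tnc start, 35 before the Sparc start and 85 before the Tgfbi start. The table held 8 of the 10 genes, with 11 starts, all but Thbs1 and Sparcl1. In the 250 bases before the start, GTCTG on either strand lay at 8 of the 11 starts, of 7 genes, and at 42.2% of all 32851 starts. TATAA lay at 4 of the 11 starts, 1 of Postn, 1 of Thbs2 and 2 of Tnc, and at 22.8% of all starts. Of the 8 genes, Fbln2 alone, whose sequence is not printed, had neither GTCTG nor TATAA in these bases. Nearby starts of a gene share sites, so these counts hold some sites more than once. The same TATAA lay 205 bases before 1 Tnc start and 126 before the other. The 2 Fbln1 starts share their GTCTG sites, at 9 and 174 bases before 1 and 68 and 233 before the other. The E-box CANNTG lay at 8 of the 11 starts and at 66.2% of all starts. These are matches of letters only.

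Thrombospondin-1 is a trimeric glycoprotein that can release TGF-beta from its latent complex and restrains blood vessel growth through the receptors CD36 and CD47. Thbs1 read 8.471, 8.665 and 8.627 in the Hdac3-flox/flox pools and 8.158, 8.137 and 7.996 in the Hdac3-Isl1KO pools. The lowest control pool lay 0.31 above the highest mutant pool, which is the widest gap of the 10 genes and wider than the range within either group, 0.19 and 0.16. The groups differed by -0.49 (95% interval -0.69 to -0.29), or 1.41-fold lower, from 8.59 ± 0.10 to 8.10 ± 0.09 (SD, n = 3 each). The limma adjusted p was 0.0758, above the threshold, and the exact two-sided permutation p was 0.1, the smallest that 3 against 3 arrays allow. Thbs1 ranked 197th of all genes by p and at the 98.3rd percentile by size of difference.

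Whether Thbs1 passed depended on how the variance was modelled and on which genes were tested, while its direction held in all 17 alternatives. With a variance prior fitted along the mean level the limma adjusted p was 0.00300, and with genes dimmer than the median row or the 25th percentile row left out it was 0.0146 and 0.0415. With any 1 array left out the difference stayed between -0.55 and -0.44, and the limma adjusted p rose to between 0.164 and 0.257.

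Platelets are a known store of thrombospondin-1, so markers of megakaryocytes and platelets were read in the same hearts. This and the marker lists below were chosen with earlier results of these data known. All 7 markers measured of 8 named had negative differences, with a median of -0.42, and the groups overlapped for Pf4, Gp5 and Treml1. Of them Ppbp alone, a platelet chemokine, passed over all genes (-0.93, limma adjusted p = 0.0300), where 0.428% of all genes did. Gp5 had the lowest mean, 5.93. At an unadjusted p under 0.05 (limma) 6 of the 7 were lower, where 7.96% of all genes were. The unlogged values of these markers summed to between 705 and 800 in the Hdac3-flox/flox pools and between 502 and 564 in the Hdac3-Isl1KO pools. Their part in the Thbs1 difference was not tested. Macrophages can also make thrombospondin-1. Of the 8 macrophage markers 7 had positive differences and 0 passed over all genes with limma. At an unadjusted p under 0.05, 2 were higher, where 6.57% of all genes were. Their sums lay between 379 and 439 in the controls and between 443 and 477 in the mutants, and the lowest mean was that of Adgre1, 4.65.

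The groups overlapped for both other thrombospondins. Thbs2, also trimeric and a restraint on vessel growth, read 5.39, 4.99 and 5.49 in Hdac3-flox/flox and 5.31, 5.19 and 5.30 in Hdac3-Isl1KO. The control pools spanned 0.50 and enclosed all 3 mutant pools, because replicate 2 was low. The difference was -0.024 (95% interval -0.34 to 0.29, limma adjusted p = 0.954), and it turned positive with Hdac3-flox/flox replicate 1 or 3 or Hdac3-Isl1KO replicate 2 left out and was -0.17, with groups that did not overlap, without Hdac3-flox/flox replicate 2. Thbs2 was the dimmest of the 10 rows, below the median row of the array, 5.66, so its differences may be compressed.

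Thrombospondin-4 is a pentameric form found in muscle, tendon and heart. Thbs4 read 9.633, 9.619 and 9.470 in Hdac3-flox/flox and 9.584, 9.5001 and 9.512 in Hdac3-Isl1KO, where the lowest control pool, replicate 3, lay below every mutant pool. Without that pool the groups did not overlap and the difference was -0.094, while without Hdac3-flox/flox replicate 1 or 2 it was -0.012 or -0.020, without Hdac3-Isl1KO replicate 1 it was -0.068 and without replicate 2 it was -0.026. With all arrays the difference was -0.042 (95% interval -0.22 to 0.13, limma adjusted p = 0.840), an interval that excludes a change as large as that of Thbs1. Whether the differences of Thbs1 and Thbs4 differ was not itself tested.

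SPARC binds collagen and is needed for its orderly assembly in basement membranes and connective tissue. Sparc read 10.27, 10.25 and 10.27 in Hdac3-flox/flox and 9.94, 10.06 and 10.05 in Hdac3-Isl1KO. The control pools lay within 0.020 of each other, and the nearest mutant pool was 0.19 below them. The groups differed by -0.24 (95% interval -0.40 to -0.09), or 1.18-fold lower, with a limma adjusted p of 0.192. With a variance prior following the mean level the adjusted p was 0.0115 (limma), and with any 1 array left out it ranged from 0.258 to 0.385 while the difference stayed between -0.26 and -0.21.

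Sparcl1, also called hevin, is a SPARC relative made by vessels and neural tissue among others. It read 6.70, 6.88 and 6.84 in Hdac3-flox/flox and 6.61, 6.29 and 6.49 in Hdac3-Isl1KO. The groups were 0.085 apart, less than the range within either, 0.18 and 0.32. The groups differed by -0.34 (95% interval -0.58 to -0.10), or 1.27-fold lower, with a limma adjusted p of 0.218.

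Parietal endoderm, an extraembryonic tissue that lays down Reichert's membrane, is known for abundant SPARC. Its 10 markers had 6 positive and 4 negative differences with a median of 0.15, and their sums lay between 3972 and 4171 in the controls and between 4280 and 4396 in the mutants. Most of each sum was Nid1, Lamb1 and Lamc1. Their unlogged means were 1005, 862 and 694 in the controls and 958, 852 and 732 in the mutants. Lama1, a laminin chain, alone passed over all genes (0.89, limma adjusted p = 0.0107), where 0.428% of all genes did. It had the lowest mean of the markers, 6.74. Much of the difference in these sums was in the keratins Krt8, with unlogged means of 238 in the controls and 333 in the mutants, and Krt18, with 328 and 429, which trophoblast and other epithelia also express. Endothelial and endocardial markers, whose cells can express Sparcl1, had a median of -0.041 over 8 genes. None passed with limma, over all genes or at an unadjusted p under 0.05, and their sums, between 4152 and 4317 in the controls against between 4102 and 4115 in the mutants, did not overlap. The dimmest of these markers was Tie1, at 7.53. The part of these cells in the Sparc and Sparcl1 values was not tested.

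Tenascin-C is a hexameric glycoprotein that loosens cell attachment to fibronectin and appears transiently where tissue is remodelled or cells migrate in the embryo. Tnc read 7.64, 7.70 and 7.67 in Hdac3-flox/flox and 8.11, 7.95 and 8.10 in Hdac3-Isl1KO. All mutant pools lay above all control pools by at least 0.25, against ranges of 0.059 among controls and 0.16 among mutants. The groups differed by 0.38 (95% interval 0.21 to 0.55), or 1.30-fold higher, from 7.67 ± 0.03 to 8.05 ± 0.09 (SD, n = 3 each). The limma adjusted p was 0.0952 and the exact two-sided permutation p was 0.1, again the smallest possible.

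As with Thbs1, the call for Tnc depended on the variance prior and on the genes tested. The limma adjusted p was 0.00859 with the prior following the mean level and 0.0187 with genes dimmer than the median row left out. It was 0.0513 after a further quantile normalization of the arrays, and it lay between 0.180 and 0.308 with any 1 array left out. The difference itself stayed between 0.35 and 0.44 in all 17 alternatives.

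Tenascin-C in the early heart is associated with mesenchyme, including that of the cushions and of neural crest origin. The 7 cushion mesenchyme markers measured of 8 named had a median of 0.080, 6 positive and 1 negative, and 0 passed over all genes or at an unadjusted p under 0.05 (limma). Their sums overlapped, between 4088 and 4346 in the controls and between 4091 and 4149 in the mutants, and Meox1 had the lowest mean, 5.01. Most of each sum was Tbx20, with unlogged means of 2584 in the controls and 2414 in the mutants. Tbx20 was the 1 negative difference (-0.098), and its groups did not overlap. Of the 7 neural crest markers measured of 8 named, 4 differences were positive and 3 negative, with a median of 0.020. For these 0 passed over all genes with limma and 2 did at an unadjusted p under 0.05, where 14.5% of all genes did. The 2 were Ednrb, lower (-0.44), and Tfap2b, higher (0.41), both named after their values were seen. The sums of the neural crest markers were between 1143 and 1245 in the controls and between 952 and 1003 in the mutants, with Tfap2a lowest at 3.73. Most of that gap was Ednrb, an endothelin receptor, whose unlogged mean was 754 in the controls and 556 in the mutants. Their part in the Tnc difference was not tested.

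Periostin and TGFBI share fasciclin domains, bind collagen and integrins, and are both induced by TGF-beta. Tgfbi read 7.743, 7.643 and 7.753 in Hdac3-flox/flox and 7.594, 7.473 and 7.503 in Hdac3-Isl1KO. The groups were separated by 0.049, less than the range within either, and they overlapped after a further quantile normalization. The difference was -0.19 (95% interval -0.36 to -0.02, limma adjusted p = 0.296). Postn, which marks cushion mesenchyme as valves mature, read 7.78, 7.78 and 7.67 in Hdac3-flox/flox and 7.67, 7.55 and 7.57 in Hdac3-Isl1KO. Only 0.0034 lay between Hdac3-flox/flox replicate 3 and Hdac3-Isl1KO replicate 1, and the groups overlapped once each array was centred on its median or after a further quantile normalization. Its difference was -0.15 (95% interval -0.32 to 0.02, limma adjusted p = 0.407).

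Fibulins bridge elastic fibres, fibronectin and proteoglycans such as versican, and fibulin-1 assists the protease ADAMTS1 in cleaving proteoglycans. Fbln1 read 9.36, 9.39 and 9.42 in Hdac3-flox/flox and 9.29, 9.35 and 9.25 in Hdac3-Isl1KO, with a gap of 0.0098 between the groups, which closed after a further quantile normalization. Its difference was -0.089 (95% interval -0.24 to 0.06, limma adjusted p = 0.578). Fbln2, which is made by cushion cells as they leave the endocardium, read 7.60, 7.13 and 7.29 in Hdac3-flox/flox and 7.03, 7.03 and 6.95 in Hdac3-Isl1KO. The control pools spanned 0.47 and the mutant pools 0.079. The groups differed by -0.34 (95% interval -0.62 to -0.05), or 1.26-fold lower, with a limma adjusted p of 0.281. It rested in part on Hdac3-flox/flox replicate 1, the highest pool: without it the difference was -0.21.

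**Figure D2:**
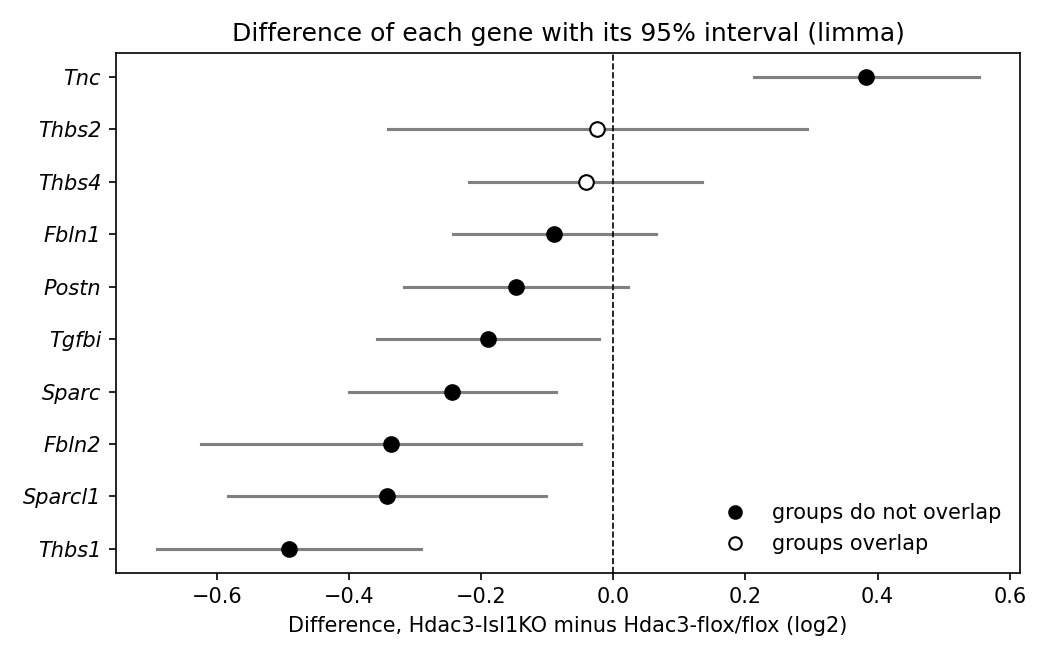
Difference of each gene, Hdac3-Isl1KO minus Hdac3-flox/flox (log2), with its 95% interval from limma over 3 arrays per group. Filled points are genes whose groups do not overlap. The intervals of Thbs1, Sparcl1, Fbln2, Sparc and Tgfbi lie below 0, that of Tnc lies above 0, and those of Postn, Fbln1, Thbs4 and Thbs2 include 0; the intervals are not adjusted for the number of genes tested.

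Deviations from the group means were small for most of the 10 genes. The SD pooled over both groups had a median of 0.068 over the 10 genes, against 0.12 over all genes, and was smallest for Fbln1, 0.040, and Sparc, 0.045. Thbs2 and Fbln2 varied most, with 0.19 and 0.17, both through the control pools. Hdac3-flox/flox replicate 2 was the lowest control for Thbs2, Sparc, Tgfbi and Fbln2 and the highest for Thbs1, Sparcl1, Tnc and Postn. With that pool left out, 9 of the 10 genes had groups that did not overlap, where 31.2% of all genes did, and 0 passed the adjusted threshold with limma, where 0.113% of all genes did.

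**Figure D3:**
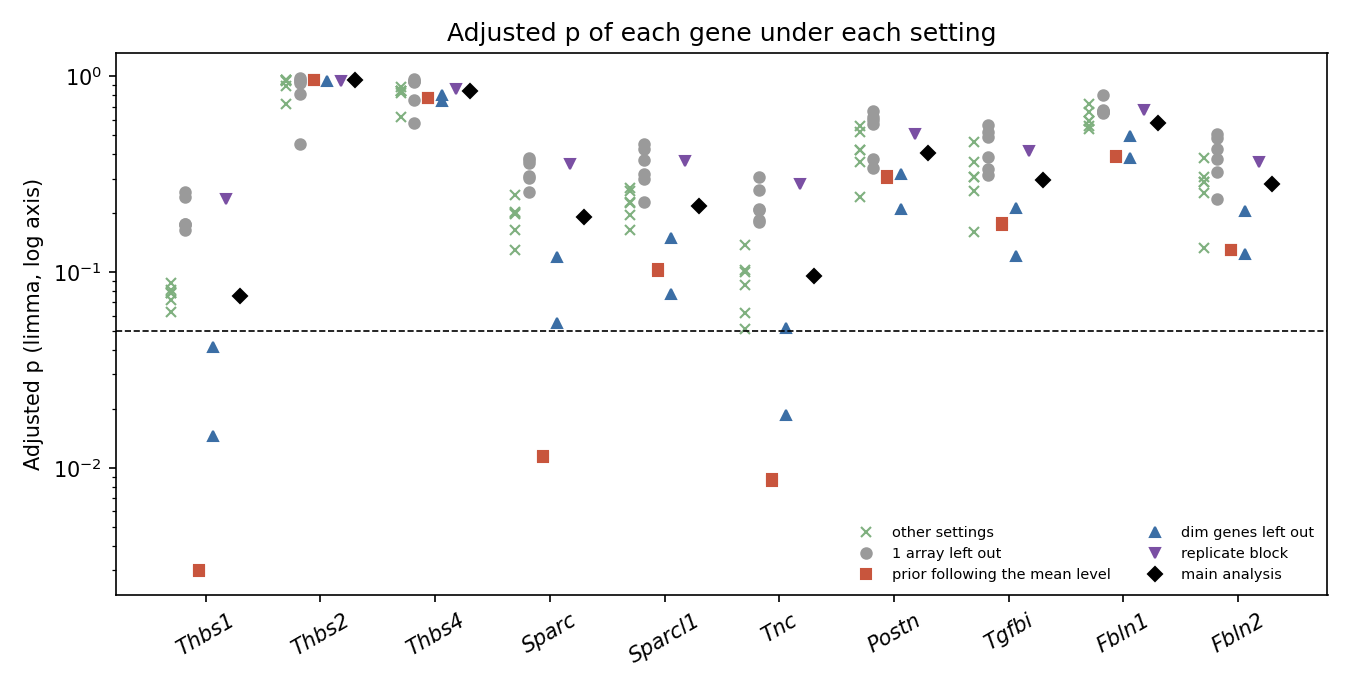
Limma adjusted p (log axis) of each gene in the main analysis and in each alternative setting, with a dashed line at 0.05. Thbs1, Tnc and Sparc fall below the line with a prior following the mean level, Thbs1 and Tnc also with genes dimmer than the median row left out, and the other 7 genes stay above it in all settings; with 1 array left out, or with the replicate block, all 10 lie above it.

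Other genes of these families, and CCN genes, vitronectin and fibronectin from outside them, formed a list of 25, called the family list. Of these 23 were measured. They are other thrombospondins, SPARC-related, tenascin, CCN and fibulin genes together with vitronectin and fibronectin. For these 13 differences were negative and 10 positive, with a median of -0.079. None passed over all genes (limma); 5 lower and 3 higher had an unadjusted p under 0.05, where 7.96% and 6.57% of all genes did. Groups did not overlap for 4 lower and 4 higher, where 12.4% and 9.41% of all genes did. The count of lower ones without overlap lay nearest to the share of all genes, and the other counts lay further above theirs. The lower means with the smallest p were those of Ccn4 (-0.39, limma adjusted p = 0.0880), a CCN protein of the Wnt response, and Efemp1 (-0.43, adjusted p = 0.126), a fibulin. The higher means with the smallest p were those of Smoc2 (0.40, limma adjusted p = 0.0595), a SPARC-related protein, and Vtn (0.58, adjusted p = 0.163), the adhesion protein vitronectin, which liver cells make. Markers of visceral endoderm, yolk sac and liver had 8 of 8 differences positive, sums between 359 and 394 against between 526 and 544, and the lowest mean for Spink1, 4.80. Fgb, a fibrinogen chain, alone passed among them (0.93, limma adjusted p = 0.0204), where 0.428% of all genes did. Their part in the Vtn value was not tested.

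Receptors, binding partners and processing proteases of matricellular proteins formed a list of 28, all measured. Differences were negative for 22 and positive for 6, with a median of -0.099. None passed over all genes (limma); 11 lower and 0 higher had an unadjusted p under 0.05, where 7.96% and 6.57% of all genes did, and 11 lower and 1 higher had groups that did not overlap, where 12.4% and 9.41% did. The integrin subunits Itgb8 (-0.42, limma adjusted p = 0.105) and Itgb5 (-0.39, adjusted p = 0.177), which pair with the alpha-v subunit, had the smallest p among the lower ones. Both bind TGF-beta complexes or matricellular proteins. Of the positive differences Lrp1 (0.14, limma adjusted p = 0.408), a receptor that clears thrombospondins, and Itgb6 (0.08, adjusted p = 0.777) had the smallest p. Cd36 and Cd47, the receptors of thrombospondin-1 named above, differed by -0.32 and -0.23 (limma adjusted p = 0.280 and 0.375), and Adamts1 differed by -0.29 (adjusted p = 0.235). These last 3 were named for their link to Thbs1 and Fbln1 after their values were seen.

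**Figure D4:**
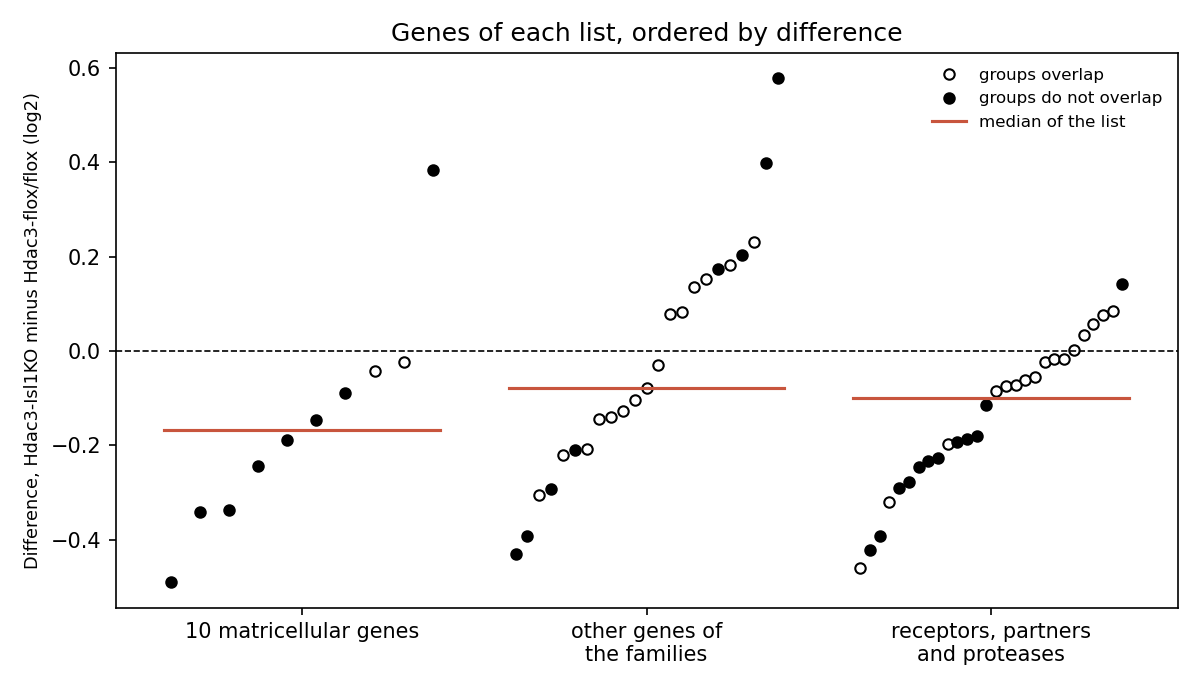
Differences, Hdac3-Isl1KO minus Hdac3-flox/flox (log2), of the 10 matricellular genes, the 23 measured genes of the family list and 28 receptors, partners and proteases. The family list includes CCN genes, vitronectin and fibronectin, which lie outside the families of the 10. Genes are ordered within each list, with filled points where the groups do not overlap and a line at each median. The medians are -0.17, -0.079 and -0.099, and each list holds genes on both sides of 0.

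Markers of further cell types in or around the heart were compared in the same way. Over all genes 0.428% passed the adjusted threshold (limma). The marker lists were chosen with earlier results of these data known, so their counts and sums are not independent of those results. Epicardial and proepicardial markers had 7 of 8 differences negative, with a median of -0.51 and sums between 2636 and 2819 in the controls and between 1867 and 1950 in the mutants. Of these Upk3b, Upk1b and Aldh1a1 passed over all genes, with differences of -0.94, -0.72 and -0.90 (limma adjusted p = 0.00895, 0.0268 and 0.0124), Wt1 differed by 0.0014, and Sema3d had the lowest mean, 6.02. Decidual markers had 5 positive and 3 negative differences, with sums between 2115 and 2325 against between 2038 and 2128, and Cebpb lowest at 5.65. Most of each sum was Des, a gene of heart muscle itself, with unlogged means of 1334 and 1348. Among them Prl8a2 and the matrix proteoglycan gene Dcn passed, with differences of -0.84 and -0.80 (limma adjusted p = 0.0410 and 0.0407). Trophoblast markers, with 7 of 10 measured, had sums between 306 and 352 in the controls and between 759 and 863 in the mutants, and Tpbpa was lowest at 4.36. The 5 that passed were Prl3d3, Prl4a1, Prl7a1, Psg29 and Cyp11a1, with differences from 1.22 to 1.81 (limma adjusted p from 0.00127 to 0.0300). The part of these cells in the values of the 10 genes was not tested. Erythroid markers, 6 measured of 8, had overlapping sums, between 7711 and 8298 against between 7741 and 8122, with Klf1 lowest at 6.51 and Kel, a blood group gene, alone past the threshold (-0.82, limma adjusted p = 0.00965).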

How the data were processed

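Biotin-labelled cDNA from 100 ng of total RNA of each heart pool was hybridised to Affymetrix arrays, per the labels' protocols. The authors deposited log2 expression values, and the tools were oligo and RMA, per the submitters' processing notes. The sources used here do not give versions or the annotation build. RMA compresses differences of dim rows, and no detection calls or scan batches were used here.

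Of 41345 rows, 23521 had 1 gene symbol in the platform annotation. For a gene with several rows the brightest was used, leaving 22180 genes, with no filter. The Hdac3-flox/flox mean was subtracted from that of Hdac3-Isl1KO, and the difference was tested with limma 3.58.1 in R 4.3.3 (two-sided, constant variance prior, 4 residual degrees of freedom and 6.92 with the prior) and Benjamini-Hochberg adjustment over all genes. These steps were first tested on simulated data with known changes, in which the SDs were shuffled across genes. That simulation cannot show how the constant prior acts where variance follows the mean level. Plots were drawn with matplotlib 3.10.9. No 2 arrays were duplicates.

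The 10 genes and all lists were chosen with earlier results of these data known. Named besides them were Hdac3, list genes past the threshold, the 2 smallest p-values in each direction of the family and receptor lists, and the dimmest marker of each cell type, plus, after their values were seen, Wt1, markers whose groups overlap or that carry much of a list's sum, and the genes so stated. The alternatives tried were leaving out each array, a replicate block, quantile normalization, median centring, filters on dim genes, other uses of rows, trended priors, array weights and protein-coding genes only.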

Additional observations from a re-analysis of the deposited data

How the results depend on the processing

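Over 17 alternatives, 16 for Thbs2, which the stricter filter on dim genes removed, there were 169 values of single genes, of which 157 kept their direction and side of the threshold, 9 passed it newly and 3 turned. The 3 were Thbs2 without Hdac3-flox/flox replicate 1 (0.0265) or 3 (0.0748) or Hdac3-Isl1KO replicate 2 (0.0151), within a range from -0.1743 to 0.0748 over the arrays left out. The number of the 10 genes past the threshold, 0 in the main analysis, was 2 with genes above the median row (Thbs1 and Tnc, where 4.94% of genes passed), 1 with genes above the 25th percentile row (Thbs1, 1.33%) and 3 with a prior following the mean level, robust or not (Thbs1, Sparc and Tnc, 3.90%). The filters test fewer genes and also refit the variance prior. With genes above the median row the unadjusted p (limma) of Thbs1 went from 0.000680 to 0.000211. That of Tnc went from 0.00114 to 0.000333. The differences were unchanged, and the part of each step was not tested. Without any 1 array the number of the 10 genes past the threshold stayed 0. Genes with groups that do not overlap numbered 5 after quantile normalization, where Postn, Tgfbi and Fbln1 came to overlap (22.2% of all genes), 7 with arrays centred on their medians (19.6%), and 8 to 9 with 1 array left out (29.2% to 35.2%). With the replicate number as a block, 0 of the 10 and 0 of all genes passed, and the limma adjusted p of Thbs1 was 0.237. Deviations of same-numbered arrays correlated at -0.013, -0.086 and 0.040 across genes, so the numbers were not taken as pairs. Over all genes the count past the threshold, 95, was 2 to 25 with 1 array left out, 149 after quantile normalization, 243 with array weights, 235 and 617 with the filters and 866 with the prior following the mean level. Signal over background was not used here, and 3 arrays per group limit what can be called.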
